A study of Mus musculus with 15 samples.

Results

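The miR-148 and miR-152 family of microRNAs (miRNAs) was examined in mouse liver grafts, and its members were chosen by name: mmu-miR-148a, mmu-miR-148b and mmu-miR-152, which are 3 of the 567 mouse miRNAs on the array. The rule asked for the name only, but the family was picked with earlier results of these data known. MiR-148a is a miRNA that the study itself selected on these samples, so that its differences between groups are not independent evidence. Of the 3 members, miR-148a was above background in every graft, miR-148b in 6 of 15 and miR-152 in 3 of 15. The mean scaled signal of miR-148a was highest in syngeneic grafts and lowest in allografts on day 14, where it was 2.28-fold lower. In that comparison 45.6% of the 103 tested miRNAs passed the threshold of 0.05 on adjusted p. Without scaling between arrays (log2 difference -0.41), or relative to hepatocyte miRNAs, miR-148a did not pass it. The difference between day 100 and syngeneic grafts did not pass it either.

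MiRNAs are short RNAs that bind messenger RNAs, mainly through a seed near their 5′ end, and lower the yield of protein from them. Members of a family share the seed and therefore many predicted targets. The family of miR-148 and miR-152 is known for repressing Dnmt1, the enzyme that maintains DNA methylation when cells divide. In antigen-presenting cells it is also known for repressing the kinase CaMKIIα. MiR-148a is known as an abundant miRNA of hepatocytes, the main cells of the liver.

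The mature sequences of the family are shown because the shared seed defines it and because the members differ by few bases, which bears on what a probe can tell apart. They are RefSeq sequences of build GRCm38.p6, written 5′ to 3′, with the seed (bases 2 to 8) in capitals. The array names the members without an arm, and they were matched to the 3p arm.
mmu-miR-148a-3p: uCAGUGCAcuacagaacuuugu
mmu-miR-148b-3p: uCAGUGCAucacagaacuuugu
mmu-miR-152-3p: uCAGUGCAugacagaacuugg

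All 3 members carried the seed CAGUGCA, and no other of the 1679 mature mouse miRNAs of the same table did. Positions are counted from 1 at the 5′ end, with the base of miR-148a first. MiR-148b differed from miR-148a by C9U and U10C, just after the seed. MiR-152 differed from miR-148a by C9U, U10G and U20G, and ended after 21 bases instead of 22. The sequences of the array's probes were not used here, so that cross-hybridization between members was not tested.

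The family members lie on 3 chromosomes. Mature miR-148a lies on the minus strand at chr6:51269829-51269850, in a hairpin of 99 bases within the span of Gm38821, a predicted protein-coding gene. Mature miR-148b lies on the plus strand at chr15:103285185-103285206, in a hairpin of 97 bases within the span of Copz1. Mature miR-152 lies on the plus strand at chr11:96850439-96850459, in a hairpin of 73 bases within the span of Copz2. Copz1 and Copz2 encode coatomer subunits, which coat transport vesicles of the Golgi.

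Whole liver grafts were taken on day 5 from syngeneic transplants and on days 5, 8, 14 and 100 from allogeneic transplants, with 3 mice and 3 arrays a group. The allografts were livers of male B10.BR (H2-Kk) mice placed in B10.D2 (H2-Kd) mice. The labels name that same strain pair for the syngeneic arrays. Their titles alone made them syngeneic here, and the strain of the syngeneic transplants was not given in the sources used here. Total RNA of each graft was labeled with Cy3 and hybridized to an Agilent mouse miRNA array.

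The intensity of a miRNA adds up its probes, each taken as the mean of its background-subtracted spots, in arbitrary units. For the scaled signal, 52 miRNAs found on every array served as reference, and each array was divided by their 75th percentile, so that a scaled log2 signal of 0 equals this percentile. Detection on an array required a probe with a share of 0.5 or more of its spots well above background. Arrays detected 71 to 115 mouse miRNAs, except replicate 1 of day 100, which detected 60. That array stood apart, with negative-control spots at 7.84 ± 10.3 (mean ± SD over spots), against means from 2.03 up to 4.0 and SDs of 3.07 to 3.45 on the other 14. The arrays filled 2 slides: slide 1 held replicates 1 and 2 of the syngeneic grafts with days 8 and 14, and slide 2 held replicate 3 of the syngeneic grafts with days 5 and 100 of the allografts. The comparisons with syngeneic grafts all use the same 3 syngeneic arrays.

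MiR-148a was the member that the grafts expressed above background throughout. Both of its probes, of 10 spots each, were well above background in every spot used on all 15 arrays. The ratio of the brighter to the dimmer probe ranged from 1.51 to 1.68 over the 15 arrays, with a median of 1.62. The SD over spots of 1 probe on 1 array was 1.57 to 8.03 percent of the mean. No spot on any array was saturated. The star strand of its hairpin, miR-148a*, was detected on 0 of 15 arrays, with 0 spots of its 4 probes well above background. Star strands of the other hairpins were not on the array.

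MiR-148b was detected on 6 of 15 arrays, 2 each of allograft days 5, 8 and 14, and on 0 of 3 syngeneic arrays and 0 of 3 arrays of day 100. Only its brighter probe gave signal: 57 of its 147 spots were well above background, against 0 spots of the other probe. The intensity of the brighter probe was 7.53, 2.42 and 11.8 in syngeneic replicates 1 to 3. On day 5 of the allografts it was 16.9, 15.1 and 7.69, and on day 8 it was 16.7, 19.6 and 15.9. It was 21.6, 15.2 and 20.7 on day 14, and 0.974, 11.1 and 15.5 on day 100. The arrays of days 8 and 14 were thus all above the 3 syngeneic arrays, while those of day 5 and day 100 overlapped them. Its other probe stayed between -0.190 and 2.34, at or below the mean of the negative controls of its array, and at -17.8 on replicate 1 of day 100.

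MiR-152 was detected on 3 of 15 arrays, 1 syngeneic and 2 of allograft day 5. Its brighter probe had 33 spots well above background over the 15 arrays and its dimmer probe 2. The brighter probe gave 10.2, 6.28 and 16.6 in syngeneic replicates 1 to 3, and 15.9, 16.4 and 8.60 on day 5 of the allografts. It gave 13.7, 12.4 and 13.5 on day 8, and 11.5, 9.51 and 13.5 on day 14. On day 100 it gave -6.01, 6.83 and 14.5. Every allograft group overlapped the syngeneic arrays in this intensity, and the spread of the syngeneic arrays covered days 5, 8 and 14 entirely. After scaling, this probe gave 0.0198, 0.0159 and 0.0269 in syngeneic replicates 1 to 3. It gave 0.0140, 0.0127 and 0.0133 on day 14, all below the syngeneic arrays. Of the 103 tested miRNAs, 54.4% did not overlap in that comparison on the scaled signal.

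**Figure D1:**
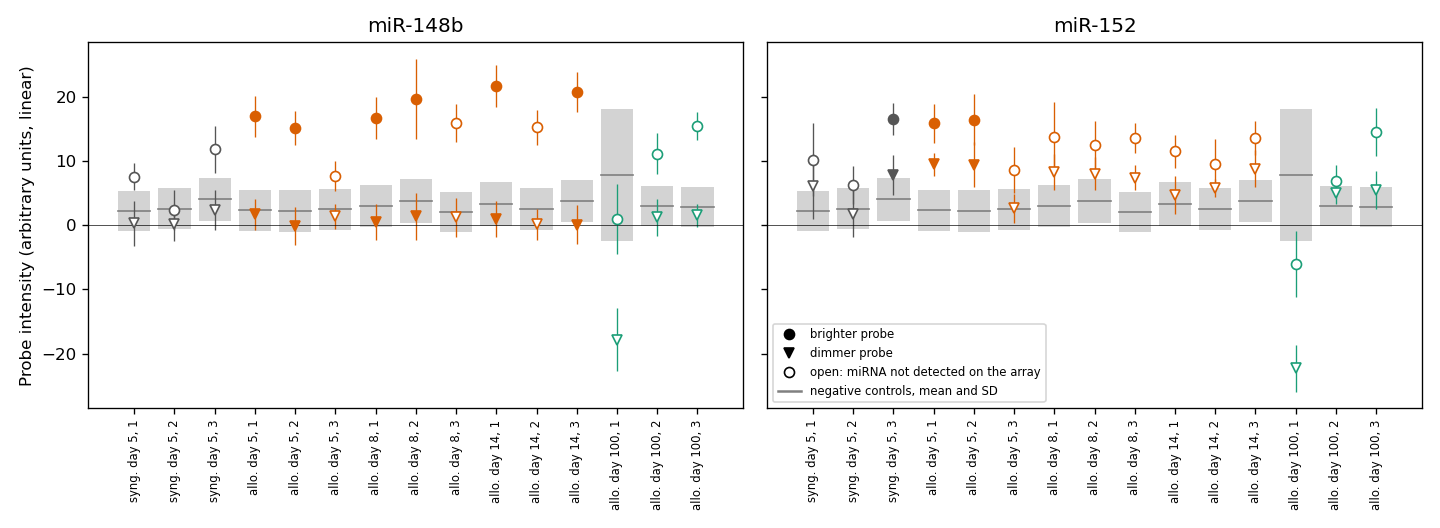
Intensity of the 2 probes of miR-148b (left) and miR-152 (right) on each of the 15 arrays, as the mean over spots with bars of 1 SD over spots, in arbitrary linear units. Circles are the brighter probe and triangles the dimmer one, open symbols mark arrays where the miRNA was not detected, and gray bands are the mean ± SD of the negative-control spots. The brighter probe of miR-148b stands at 15.2 to 21.6 on all 6 arrays of days 8 and 14, and both miRNAs fall below 1 on replicate 1 of day 100.

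Neither dim member passed the filter for the test across miRNAs, which asked for detection on all 3 arrays of at least 1 group, so that 1 of the 3 members was tested among 103 miRNAs. For the other members, the scaled signal was compared over the 5 groups with an exact permutation test of all 1401400 assignments of the 15 arrays to 5 groups of 3. The scaled signal of miR-148b was 0.0149 ± 0.0082 (SD, n = 3) in syngeneic grafts, and in allografts 0.0189 ± 0.0028 (day 5), 0.0239 ± 0.0032 (day 8), 0.0228 ± 0.0040 (day 14) and 0.0097 ± 0.0230 (day 100). The exact test gave p = 0.58 for it, and p = 0.20 without replicate 1 of day 100. The scaled signal of miR-152 was 0.0306 ± 0.0097 in syngeneic grafts, and in allografts 0.0268 ± 0.0021 (day 5), 0.0274 ± 0.0028 (day 8), 0.0207 ± 0.0011 (day 14) and 0.0068 ± 0.0303 (day 100). For miR-152 the exact test gave p = 0.27, and p = 0.23 without that array. Leaving out 1 array moved the p of miR-152 past the threshold, to 0.040 by the same exact test without replicate 3 of day 100, and it was 0.059 without replicate 2. With all 15 arrays, a difference between groups was not detectable at these signals for either member. The means of miR-148b lay below the floor of 0.0270, which is the lowest scaled signal that counted as detected on a typical array, its median across arrays, and no fold was computed for it or for miR-152.

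For the brighter probe of miR-148b alone, a choice made after its values were seen, the 3-against-3 exact permutation test (two-sided) gave p = 0.1 for day 8 and for day 14 against the syngeneic grafts, on the intensity and on the scaled signal. That is the smallest p which 3 against 3 arrays can give. Over the 5 groups the exact permutation test of this probe gave p = 0.058 on the intensity and p = 0.25 on the scaled signal. The share of the 103 tested miRNAs whose arrays did not overlap in these comparisons was 60.2% on day 8 and 52.4% on day 14 on the intensity, and 51.5% and 54.4% on the scaled signal. For the brighter probe of miR-152, the same 3-against-3 exact permutation test gave p = 0.1 for day 14 on the scaled signal and p = 0.9 on the intensity. Over the 5 groups the exact permutation test of that probe gave p = 0.16 on the scaled signal and p = 0.40 on the intensity.

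For miR-148a, intensity before scaling was 539, 473 and 989 in syngeneic replicates 1 to 3. It was 801.8, 857 and 414 in allografts on day 5, and 535, 542 and 602 on day 8. It was 409, 505 and 518 on day 14, and 1057, 519 and 753 on day 100. Before scaling the allograft groups all overlapped the syngeneic grafts, which spanned 473 to 989.

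After scaling, the log2 signal of miR-148a was 0.07, 0.26 and 0.68 in syngeneic replicates 1 to 3. On day 5 the 3 allografts lay at -0.14, -0.15 and -0.14. On day 8 they lay at -0.42, -0.52 and -0.46. The values on day 14 were -1.01, -0.57 and -0.97, and those on day 100 were 0.08, 0.01 and -0.04. Every allograft of days 5, 8 and 14 was thus below every syngeneic graft, and on day 100 replicate 1, at 0.08, overlapped the syngeneic arrays. Of the 103 tested miRNAs, 30.1% (day 5), 51.5% (day 8), 54.4% (day 14) and 29.1% (day 100) did not overlap between allografts and syngeneic grafts. Replicate 3 of the syngeneic grafts, which shares its slide with days 5 and 100, was the highest of the 15 arrays.

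The group means put the syngeneic grafts first (0.34 ± 0.32, SD, n = 3), then day 100 (0.02 ± 0.06), day 5 (-0.14 ± 0.0024), day 8 (-0.47 ± 0.05) and day 14 (-0.85 ± 0.24). Differences between neighbors in that order did not pass the test: by limma with Benjamini-Hochberg adjustment over the 103 miRNAs, adjusted p was 0.14 for day 100 and syngeneic, 0.50 for day 5 and day 100, 0.25 for day 8 and day 5, and 0.20 for day 14 and day 8. Over the 5 groups together, the moderated F test of limma gave an adjusted p of 0.00070 for miR-148a. By that test 64.1% of the tested miRNAs were called.

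**Figure D2:**
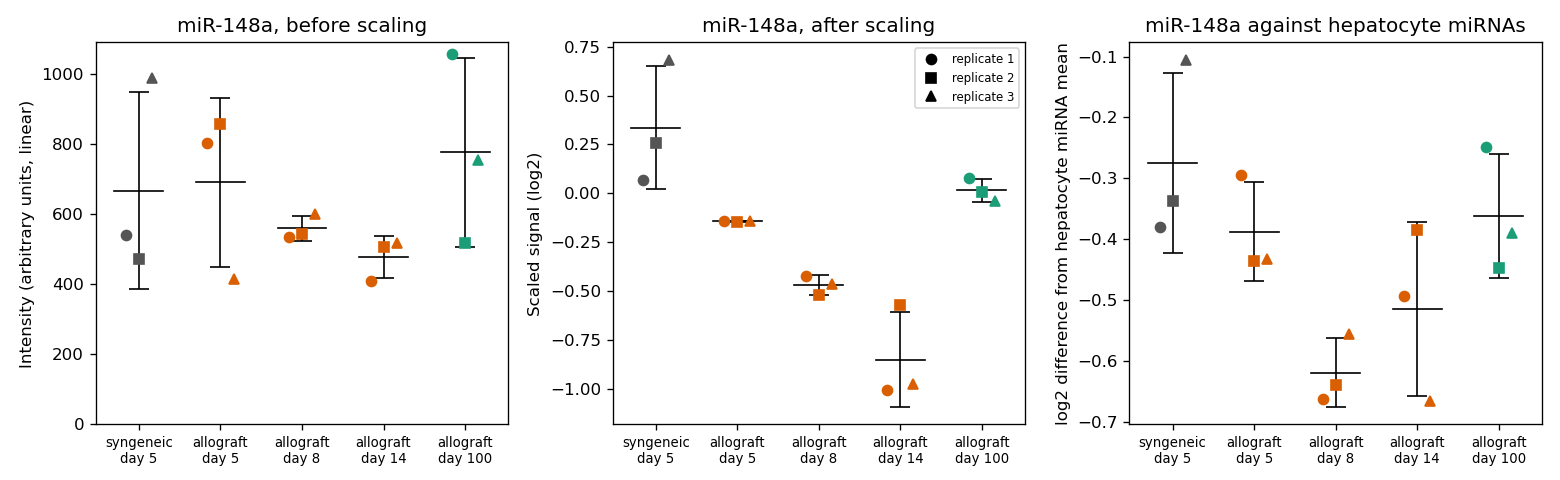
MiR-148a on each array: intensity before scaling (left, arbitrary linear units), scaled log2 signal (middle), and log2 signal minus the mean log2 signal of 5 hepatocyte miRNAs of the same array (right); each symbol is an array, lines are group means and bars 1 SD. After scaling the syngeneic grafts lie at 0.07 to 0.68 and those of day 14 at -1.01 to -0.57, while before scaling the groups overlap.

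On day 14, miR-148a was lower than in syngeneic grafts by a log2 difference of -1.19 (standard error 0.16, 2.28-fold), with an adjusted p of 7.9e-05 by limma. In that comparison 45.6% of the tested miRNAs were called, and miR-148a ranked 8th of 103 by p. On day 8 the difference was -0.81 (standard error 0.16, 1.75-fold, adjusted p = 0.0017 by limma), where 40.8% were called. On day 5 it was -0.48 (1.40-fold), with an adjusted p of 0.0495 just under the threshold, where 25.2% were called. This call on day 5 held in 2 of the 15 fits that left out an array, and it was -0.31 (adjusted p = 0.12 by limma) without syngeneic replicate 3. On day 100 the difference of -0.32 did not pass the threshold (adjusted p = 0.14 by limma, 95% interval -0.68 to 0.03), where 31.1% were called. Since whole grafts were measured, fewer cells that express miR-148a and less miR-148a in each cell cannot be told apart.

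Between the allograft days, miR-148a was lower on day 14 than on day 5 (log2 difference -0.71, 1.63-fold, adjusted p = 0.012 by limma) and than on day 100 (-0.87, 1.82-fold, adjusted p = 0.0018). The shares of tested miRNAs called in these comparisons were 12.6% and 51.5%. Without replicate 1 of day 14, the difference from day 5 was -0.63 (adjusted p = 0.073 by limma). Day 8 differed from day 100 by -0.48 (adjusted p = 0.056 by limma, 19.4% called) and from day 5 by -0.32 (1.94% called), and day 14 differed from day 8 by -0.38 (5.83% called). These 3 differences did not pass the threshold. Day 5 differed from day 100 by -0.16, where 29.1% were called. The arrays did not overlap in any of these 6 comparisons between allograft days. Non-overlap was common among all tested miRNAs there, at 42.7% between days 14 and 5, 46.6% between days 14 and 8, 65% between days 14 and 100, 55.3% between days 8 and 5, 59.2% between days 8 and 100, and 46.6% between days 5 and 100.

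Both probes of miR-148a gave similar differences. On day 14 against the syngeneic grafts the dimmer probe gave -1.20 and the brighter -1.18, and on day 100 they gave -0.33 and -0.32.

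The direction of these differences depended on scaling between arrays on days 5 and 100. Without scaling, miR-148a differed from syngeneic grafts by 0.06 on day 5 and 0.24 on day 100, both above 0, against -0.18 on day 8 and -0.41 on day 14, and none of the 4 passed the threshold (adjusted p 0.38 to 0.92 by limma). Without scaling, however, the median of all 103 miRNAs itself moved by 0.54, 0.69, 0.71 and 0.33 on days 5, 8, 14 and 100. With the scaling used here it moved by 0.12, 0.14, 0.07 and 0.00. Relative to that median, the difference of miR-148a was -0.48 without scaling and -0.60 with it on day 5, -0.86 and -0.95 on day 8, -1.12 and -1.26 on day 14, and -0.09 and -0.32 on day 100. The other scalings (quantile, median, 75th percentile over all miRNAs) gave -0.97 to -1.26 on day 14.

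When slide was a block in the fit, the differences of miR-148a from syngeneic grafts were -0.83 (day 5), -0.63 (day 8), -1.01 (day 14) and -0.67 (day 100), all 4 past the threshold (adjusted p from 0.00017 to 0.030 by limma). In that fit the shares of tested miRNAs called were 4.85% (day 5), 44.7% (day 8), 47.6% (day 14) and 15.5% (day 100). Within slide 2 the lone syngeneic array was at 0.68, against means of -0.14 on day 5 and 0.02 on day 100. Within slide 1 the other 2 syngeneic arrays had a mean of 0.16, against means of -0.47 on day 8 and -0.85 on day 14. The comparisons of day 14 with days 5 and 100 cross the slides, and with the block they were -0.19 (adjusted p = 0.62) and -0.35 (adjusted p = 0.36), no longer past the threshold. Day 8 against day 5 and day 100 turned in direction, to 0.20 and 0.04. Days 14 and 8, which share slide 1, differed by -0.38. Only the syngeneic grafts lay on both slides. The slide effect in this fit thus rests on syngeneic replicate 3 against replicates 1 and 2.

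**Figure D3:**
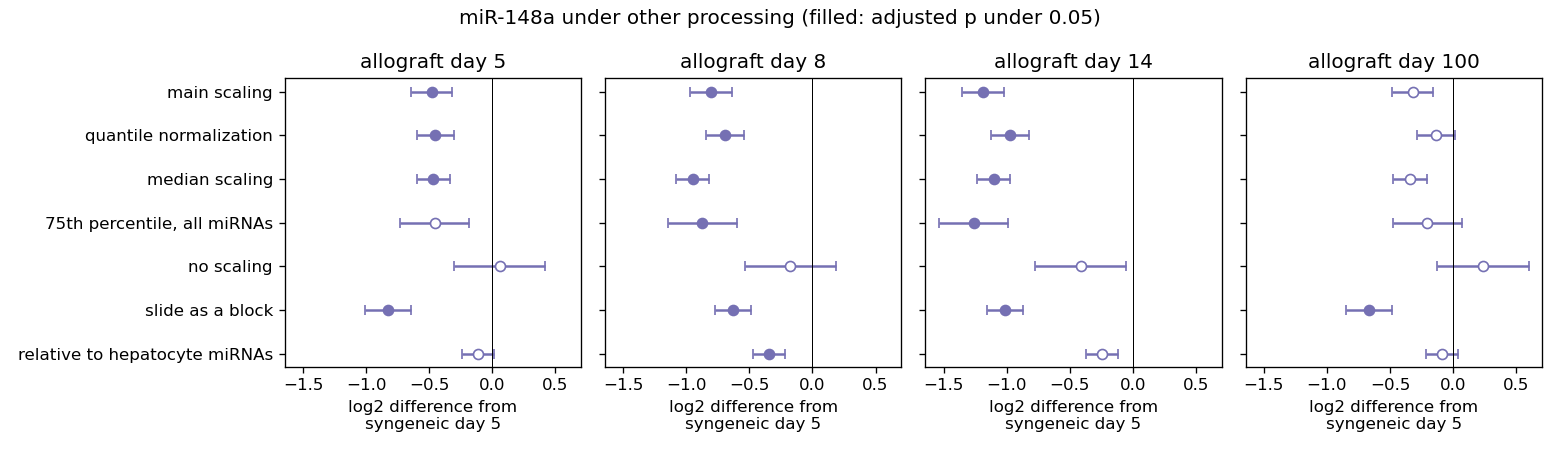
Log2 difference of miR-148a between each allograft group and the syngeneic grafts of day 5 under 7 ways of processing, with bars of 1 standard error; filled symbols have an adjusted p under 0.05 by limma. On days 8 and 14 all 7 values lie below 0, and without scaling the values of days 5 and 100 lie above 0.

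MiRNAs that mark hepatocytes were lower beside miR-148a on day 14, although 1 of them was higher without scaling. Of the 6 listed hepatocyte miRNAs, 5 were tested (miR-122, miR-192, miR-193, miR-194 and miR-365), and all 5 were called lower on day 14 than in syngeneic grafts, with a median log2 difference of -0.97, against 0.07 over all 103, of which 18.4% were called lower. MiR-122, the most abundant miRNA of hepatocytes, fell by 1.05 on the log2 scale, miR-192 by 0.97 and miR-194 by 0.99. The summed scaled signal of all 6 listed, with miR-802, which was not tested, was 29.7 to 35.1 in syngeneic grafts. In allografts it was 21.7 to 25.8 on day 5 and 22.7 to 24.6 on day 8. It was 13.3 to 17.0 on day 14 and 23.1 to 27.7 on day 100. Of the 5 tested, 2 were called lower on day 5 (6.8% of all tested), 4 on day 8 (17.5%) and 2 on day 100 (14.6%). Without scaling, the median of the 5 was -0.19 on day 14 and 0.19 to 0.21 on the other days, while the median of all 103 was 0.33 to 0.71. Relative to the median of all 103, the list was below 0 on each day with and without scaling, at -1.04 and -0.90 on day 14 and at -0.36 and -0.13 on day 100.

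MiRNAs that mark leukocytes rose in the same grafts, with or without scaling. All 6 tested of the 8 listed were called higher on day 14 (median log2 difference 1.96, where 27.2% of all tested were called higher). Among them were miR-342-3p (4.04), miR-223 (2.38), a miRNA of neutrophils and macrophages, and miR-155 (1.95), which rises when lymphocytes and macrophages are activated. Listed miR-150 and miR-181a did not pass the filter. The filter asked for detection on all 3 arrays of 1 group. A miRNA dim in syngeneic grafts could thus enter only through a group where it was brighter, and the count of 6 is partly set by the filter. The 3 syngeneic arrays stood at the floor for miR-155, so that its value depends on that floor. The summed scaled signal of all 8 listed, with the untested miR-150 and miR-181a, was 0.705 to 1.77 in syngeneic grafts. In allografts it was 3.22 to 8.37 on day 5 and 2.46 to 2.87 on day 8. It was 3.29 to 4.48 on day 14 and 1.17 to 1.67 on day 100. Of the 6 tested, all were called higher on day 5 (18.4% of all tested), 4 on day 8 (23.3%) and 3 on day 100 (16.5%). Those not called on day 8 were miR-142-3p and miR-142-5p. On day 100 miR-148a itself was not called lower. Of 3 listed erythroid miRNAs, 2 were tested, and miR-451 rose on day 14 (1.55) while miR-144 stood at 0.01. On day 8 miR-144 was called lower (-1.57, adjusted p = 0.018 by limma) and miR-451 higher (1.21). Of all tested miRNAs, 17.5% were called lower on that day and 23.3% higher. On day 5 miR-451 was called higher (0.99) and miR-144 (0.15) was not. On day 100 miR-144 (-1.26) and miR-451 (0.59) were not called. MiR-146a and miR-223 of the leukocyte list and miR-451 are among the miRNAs that the study picked on these samples. Their calls are not independent evidence. Of the stromal and endothelial miRNAs, 2 were tested (miR-126-3p and miR-214) and 0 were called in any comparison with syngeneic grafts. The part of these cell types in the difference of miR-148a was not tested.

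Set against the hepatocyte miRNAs of the same array, miR-148a differed less between groups. The log2 signal of miR-148a minus the mean log2 signal of the 5 hepatocyte miRNAs was -0.38, -0.34 and -0.11 in syngeneic replicates 1 to 3. It was -0.29, -0.44 and -0.43 on day 5, and -0.66, -0.64 and -0.56 on day 8. It was -0.49, -0.38 and -0.67 on day 14, and -0.25, -0.45 and -0.39 on day 100. The 3 arrays of day 8 lay below every syngeneic array, where 75.7% of all tested miRNAs did not overlap. Those of day 14 did so by a narrow margin (-0.384 against -0.380), where 73.8% did not overlap, and days 5 and 100 overlapped the syngeneic arrays. On this scale, chosen after the data were seen, the difference from syngeneic grafts was -0.24 on day 14 (adjusted p = 0.10 by limma) and -0.11 on day 5 (adjusted p = 0.49), so that the calls of these days were lost. The call of day 8 was kept (-0.35, adjusted p = 0.031 by limma), and day 100 stood at -0.09. On this scale 65% of the tested miRNAs were called on day 8, and 7.77% were called lower there. The shares called were 40.8% (day 5), 71.8% (day 14) and 41.7% (day 100).

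Other miRNAs known for repressing writers of methylation, among them the miR-29 group (DNA methyltransferases) and miR-101 (Ezh2, which methylates histone H3), were described beside the family. Of the 8 listed, 7 were tested, and on day 14 4 were called lower and 0 higher, against 18.4% and 27.2% of all tested miRNAs, with a median log2 difference of -0.74. The 4 were miR-101b (-2.00), miR-101a (-1.45), miR-29c (-0.77) and miR-26b (-0.74). The values of miR-29b (-0.63), miR-26a (-0.20) and miR-29a (0.07) did not pass the threshold. Day 5 had 1 of the 7 called lower (6.8% of all tested), and days 8 and 100 had 4 each (17.5% and 14.6%). Without scaling the median on day 14 was 0.04, with 5 of the 7 above 0, while the median of all 103 stood at 0.71. Relative to that median the list stood at -0.67 without scaling and -0.81 with it. MiR-101a and miR-101b are among the miRNAs that the study picked on these samples.

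**Figure D4:**
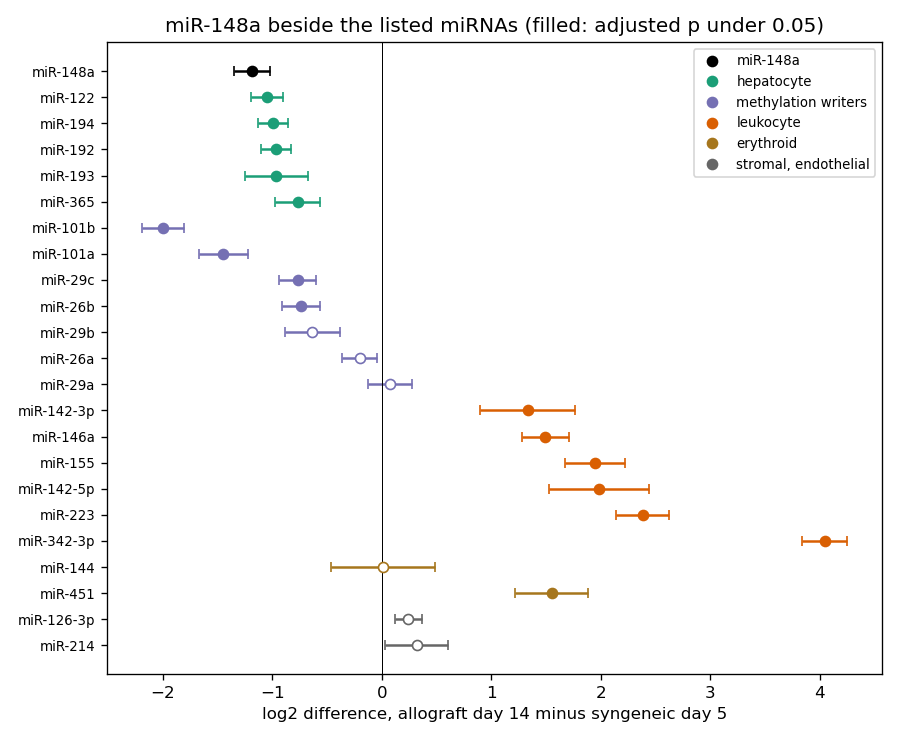
Log2 difference between allografts of day 14 and syngeneic grafts for miR-148a and each tested miRNA of the 5 lists, with bars of 1 standard error; filled symbols have an adjusted p under 0.05 by limma. MiR-148a stands at -1.19, below the hepatocyte miRNAs (-1.05 to -0.77) and within the range of the methylation list (-2.00 to 0.07). The leukocyte miRNAs stand at 1.33 to 4.04.

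The miRNAs whose scaled log2 signal over the 15 arrays was most like that of miR-148a were miR-192 (Pearson r 0.91), miR-22 (0.89), miR-122 (0.88), miR-194 (0.86) and miR-30a (0.84). The most opposed were miR-342-3p (-0.91), miR-652 (-0.88) and miR-155 (-0.83). In syngeneic grafts miR-155 stood at the floor and miR-342-3p near it. These arrays share the group structure, the slides and the scaling, and the correlations are a description. With each group's mean taken away, r was 0.85 for miR-192 and 0.85 for miR-30a, 0.60 for miR-194, 0.46 for miR-122 and 0.36 for miR-22. It was 0.04 for miR-342-3p, -0.05 for miR-652 and -0.02 for miR-155.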

How the data were processed

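MiRNA expression was measured on 15 Agilent 1-color arrays, 3 a group, grouped by their titles. The authors deposited, for each array, the intensity of every spot from Feature Extraction, whose version the headers give as 9.5.1.1. These values were background-subtracted, on a linear scale and not normalized between arrays, with flags for spots well above background and for outliers. The deposited log2 table of the series was not used here.

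Control and outlier spots were left out, and the mean intensities of a miRNA's probes were summed. For scaling, 52 miRNAs found on every array served as reference, and each array was divided by their 75th percentile. Values under a floor of 0.0270 (log2 -5.21) took the floor before log2. A miRNA was tested if some group had it on each of its 3 arrays, which left 103 for limma (version 3.58.1, R 4.3.3), with 1 mean per group over 15 arrays, and Benjamini-Hochberg adjustment within each comparison (threshold 0.05). The number of arrays limits the precision. The methods' t-test and other scalings, probe summaries, filters, floors, background corrections, blocks and left-out arrays were alternatives. The background correction by normexp (offset 50) used median spot and surround intensities. The fits were tested on simulated data. Dim members were compared by exact permutation in Python 3.11.15 with numpy 2.4.6 and scipy 1.17.1.

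The text names the 3 members, star strands on the array, the miRNAs of the 5 lists, and the 5 most and 3 least correlated with miR-148a. Members and lists were chosen with earlier results of these data known. No 2 arrays of a group held identical spot values. Per the labels, 3 mice of each group were used. Replicate numbers were not used to pair the arrays in the main fit.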

Additional observations from a re-analysis of the deposited data

Results flagged for a closer look

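The differences of miR-148a from the syngeneic grafts were not the same on all allograft days by a test of the difference itself. The difference on day 14 was larger than on day 5, by a log2 difference of -0.71 (3 arrays of 3 lower, adjusted p = 0.012 by limma), and larger than on day 100, by -0.87 (3 of 3 lower, adjusted p = 0.0018 by limma). Of all tested miRNAs, 12.6% were called and 42.7% did not overlap between days 14 and 5. Between days 14 and 100, 51.5% were called and 65% did not overlap. Both comparisons cross the 2 slides. In a fit with slide as a block they were -0.19 and -0.35 and did not pass the threshold. The slide effect in that fit rests on syngeneic replicate 3 against syngeneic replicates 1 and 2. Relative to the hepatocyte miRNAs of the same array they were -0.13 and -0.15.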

How the results depend on the processing

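The calls of miR-148a against syngeneic grafts on days 8 and 14 held in 30 of 32 alternatives each. Without arrays in turn they ranged from -0.94 to -0.63 and from -1.33 to -1.01. They were lost without scaling (-0.18 and -0.41), and day 8 also by the methods' t-test after Benjamini-Hochberg (-0.81, adjusted p = 0.054), and day 14 relative to hepatocyte miRNAs (-0.24). Day 5 (-0.48, adjusted p 0.019 to 0.92 over its alternatives) was lost with the 75th percentile over all miRNAs (-0.46), the brightest probe (-0.36), normexp (-0.44), no filter, a floor divided by 4, only the 2 groups, the t-test with or without adjustment (all -0.48) and relative to hepatocyte miRNAs (-0.11), and turned to 0.059 without scaling. Leaving out arrays gave -0.61 to -0.31 on day 5, and -0.46 to -0.15 on day 100. Day 100 passed with the slide as a block (-0.67) and with the software's total signal (-0.41), and turned to 0.24 without scaling.

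Day 14 against day 5 (-0.85 to -0.63 without arrays in turn) was lost with the 75th percentile over all miRNAs (-0.81), no scaling (-0.47), no filter and the adjusted t-test (both -0.71), the slide block (-0.19) and relative to hepatocyte miRNAs (-0.13). Day 14 against day 100 (-1.01 to -0.79) was lost without scaling (-0.65), with the slide block (-0.35) and relative to hepatocyte miRNAs (-0.15). Day 14 against day 8 (-0.52 to -0.30) turned to 0.10 relative to hepatocyte miRNAs. Day 8 against day 5 (-0.35 to -0.30) passed with only the 2 groups and by the t-test (-0.32), and turned to 0.20 with the slide block. Day 8 against day 100 (-0.51 to -0.45) passed with quantile (-0.55) and median scaling (-0.61), only the 2 groups and the t-test (-0.48), and turned to 0.036 with the slide block. It also passed without each syngeneic array and without replicate 2 of day 14. Day 5 against day 100 (-0.19 to -0.13) passed only by the unadjusted t-test (-0.16). The F statistic over the 5 groups was 11.3 to 18.4 without arrays in turn, 0.93 without scaling (lost) and 2.28 relative to hepatocyte miRNAs (lost).

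MiR-148b was detected on 11 arrays by 1 spot or by the software's flag and on 2 by all spots, and on 5 to 6 without arrays in turn. MiR-152 was detected on 8, 9 and 1 arrays by these rules, and on 2 to 3 without arrays in turn. Its exact permutation p over the groups was 0.040 to 0.45 without arrays in turn, passing without replicate 3 of day 100, and that of miR-148b was 0.18 to 0.77. MiR-148a was detected on all 14 arrays left in each case.

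With the replicate number as a block, the difference on day 5 was -0.48 (adjusted p = 0.068 by limma) and lost its call, and no other call of miR-148a changed. The deviations of same-numbered allograft and syngeneic arrays had correlations of -0.65 to 0.45. These cannot settle whether the numbers pair, and the titles give the number only. The number of miRNAs called moved with the processing: against syngeneic grafts from 26 to between 1 and 42 on day 5, from 42 to between 20 and 67 on day 8, from 47 to between 21 and 74 on day 14 and from 32 to between 1 and 43 on day 100. Between allograft days it moved from 13 to between 0 and 50 (day 14 and 5), from 6 to between 0 and 34 (14 and 8), from 53 to between 20 and 67 (14 and 100), from 2 to between 0 and 36 (8 and 5), from 20 to between 1 and 45 (8 and 100) and from 30 to between 5 and 38 (5 and 100). The signals of miR-148b and miR-152 near the negative controls limit what can be said of them. The causes of the differences above were not tested.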

Other observations

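Across the 15 arrays, the intensities of miR-148b and miR-152 gave a Pearson r of 0.91, and of 0.64 over the 14 arrays without replicate 1 of day 100, where both brighter probes were below 1. On the scaled signal r was 0.84 over 15 arrays and 0.11 over 14. For miR-148a and miR-152, r on the intensity was -0.28 over 15 arrays and 0.73 over 14, and for miR-148a and miR-148b it was -0.42 and 0.12. On the scaled signal r was 0.08 and 0.65 for miR-148a and miR-152, and -0.31 and -0.37 for miR-148a and miR-148b. These arrays share labeling, slides and brightness, and the values are a description.

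The difference of log2 signals between miR-148a and miR-122 of the same array, which joins different probes and is read for its change between groups, had a mean of -4.42 ± 0.20 (SD, n = 3) in syngeneic grafts. In the allografts it was -4.47 ± 0.16 (day 5), -4.81 ± 0.09 (day 8), -4.56 ± 0.24 (day 14) and -4.39 ± 0.15 (day 100). An exact permutation test over the 5 groups, added after the data were seen, gave p = 0.091 for it. For miR-148a minus the mean of the 5 hepatocyte miRNAs the same exact permutation test gave an unadjusted p of 0.023, with day 8 lowest at -0.62 ± 0.06.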
